A study of Mus musculus with 22 samples.

Results

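The transcriptome described here is that of normal mouse blastocysts, taken as the 4 embryos of embryonic day 3.5 that carry at least 1 working copy of Nanog. They were chosen by their genotype labels alone and make up 4 of the 22 libraries of the series. The 4 embryos were a wild-type female, a wild-type male, a female heterozygous for Nanog and a male heterozygous for Nanog. Each combination of genotype and sex is therefore a single embryo, and no label says which embryos shared a litter. The labels name no strain and no construct for the Nanog allele, and the heterozygous embryos still carry an intact copy. The other libraries of the series, from Nanog-null embryos and stem cell lines, are not described.

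The blastocyst is a hollow ball of cells in which the first cell types of the mouse have just formed. Its outer epithelium, the trophectoderm, pumps fluid into the cavity and later builds the placenta. The inner cell mass holds the epiblast, from which the body arises, and the primitive endoderm, which forms yolk sac tissue. NANOG, a homeodomain transcription factor, marks epiblast cells, while GATA6 marks primitive endoderm cells, and FGF signalling from the former promotes the latter. Each library came from a whole embryo, so all 3 tissues were mixed in it. In such bulk samples fewer cells of a type and less RNA per cell cannot be told apart. Values below are listed in a fixed order: wild-type female, wild-type male, heterozygous female, heterozygous male.

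Total counts were 23633097, 32231620, 23272530 and 14768624 per embryo, and levels are given as CPM, the count of a gene for every 1000000 counts of that total. CPM is not divided by transcript length, so a long transcript collects more counts than a short one at the same number of molecules. Where genes are compared with each other, the level is instead given as CPM per kb of transcript, with the length taken from GENCODE M21. The smallest library fixed the detection floor of 3 counts at 0.203 CPM, and the largest at 0.0931 CPM. Libraries of this size leave little counting error. For the summed level of a gene list, the exact (Clopper-Pearson) 95% interval of an embryo's share reached at most 0.0123 percentage points to either side. These intervals and floors cover counting error only, since the amplified cDNA molecules carried no identifiers. Spread between embryos, given as SD with n = 4, is the error that matters below.

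Of 21881 gene symbols in the table, 6368 had no count in any of the 4 embryos, 11324 had at least 1 count in every embryo and 6666 reached 10 CPM in every embryo, which is 30.5% of the table. A level of at least 10 CPM in all 4 embryos is called expressed below. The number of genes with at least 1 count was 13801, 13242, 12793 and 13175. After every library was thinned to the total of the smallest, the numbers were 13489, 12957, 12629 and 13175, so the heterozygous female still showed the fewest detected genes. Expression was concentrated in few genes. The 10 highest genes took 9.599%, 9.59%, 10.97% and 9.06% of all counts, and the 1000 highest took 61.7%, 61.9%, 63.4% and 61.6%. Between pairs of embryos, levels of the 4893 genes whose mean reached 32 CPM differed by a median of 1.21-fold to 1.25-fold, and 5.52% to 9.20% of these genes differed by more than 2-fold. The Pearson correlation of log2(CPM + 1) across these genes, which are not independent replicates, was between 0.890 and 0.931.

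Nanog itself was set beside the genotype labels, which its level alone could not check here. It was at 137, 107, 87.6 and 53.6 CPM, so both heterozygous embryos lay below both wild-type embryos, though the wild-type male and heterozygous female were close. Of the 4893 genes whose mean reached 32 CPM, 17.5% had both heterozygous embryos below both wild-type embryos and 18.6% had both above, so such an order is common. The edgeR quasi-likelihood test put heterozygous at -0.80 ± 0.26 (log2 fold change, SE) against wild type, with an adjusted p of 0.913. The 4 marker genes of the stage were all present. Dppa3, a maternal and germ cell factor that protects DNA methylation, was at 2829, 2166, 5697 and 4318 CPM. Dppa5a, an RNA-binding protein of pluripotent cells, was at 2957, 2746, 2542 and 1877 CPM. Sfn, the epithelial 14-3-3 protein stratifin, was at 823, 955, 895 and 1052 CPM and Gata6 at 122, 115, 197 and 154 CPM. Markers of tissues that could cling to a flushed embryo were mostly low or absent. Of 12 cumulus and oviduct markers none was expressed and 7 were listed at 0 counts in all 4 embryos. Their summed level was 17.4, 1.74, 1.55 and 3.18 CPM, and the wild-type female's value rested on Cyp11a1 at 15.7 CPM. Of 13 blood markers none was expressed, 5 including Ptprc were at 0 counts in all 4 embryos, and the sums were 17.5, 12.5, 6.88 and 20.1 CPM. Of 13 fibroblast and muscle markers, 8 including Col1a1 and Col3a1 were at 0 counts, and only Acta2, a smooth muscle actin, was expressed, at 231, 242, 248 and 231 CPM. Reads of Acta2 may be shared with its near-identical actin relatives. Fbln5, next of that list by mean level, was at 2.45, 6.61, 0.043 and 12.7 CPM.

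The highest genes of the blastocyst encoded the actin cytoskeleton, ubiquitin, chaperones and the translation machinery. Actb, cytoplasmic beta-actin, ranked first in all 4 embryos at 22122, 24359.7, 20271 and 20707 CPM. Ubb, a polyubiquitin gene, ranked next in all 4 at 13944, 11035, 17786 and 11681 CPM, and Actg1, gamma-actin, followed at 9448, 10494, 10868 and 10506 CPM. Among the next were Hspa8, the constitutive HSP70 chaperone, Eef1a1, which delivers aminoacyl-tRNA to the ribosome, and both cytosolic HSP90 chaperones, Hsp90ab1 and Hsp90aa1. Hspa8 was at 7431, 8294, 10219.6 and 5891 CPM and Eef1a1 at 7634, 8147, 7650.1 and 6371 CPM. Psap, the precursor of the lysosomal saposins, was at 6565, 6224, 7018 and 8080.3 CPM and stood at rank 4 in the heterozygous male against ranks 8, 8 and 10 in the others. Gm2a, the lysosomal GM2 activator protein, was at 5022, 3324, 3898 and 3327 CPM, so 2 lysosomal sphingolipid cofactors were among the 20 highest genes. Of the 20 highest genes of each embryo, 17 were shared by all 4 embryos, out of 27 that were among the 20 in any.

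Some of these ranks belong to genes with close copies, and others change when transcript length is taken into account. Gm1821, listed at 8144, 6477, 9805 and 6495 CPM, held a nearly fixed ratio to Ubb, 1.70 to 1.81, and Ftl1 to Ftl2 a ratio of 1.25 to 1.27. How the counting treated reads that match several places is not given in the sources used here, so levels of both pairs are uncertain, as are those of Tuba1a, Tuba1b and Tuba1c. Lrrc58, a leucine-rich repeat protein, was at 5394, 5863, 4987 and 5003 CPM, at ranks 11, 10, 13 and 11, but ranked 165 by CPM per kb of transcript. Ptma, prothymosin alpha, with a short transcript, was at 6241, 7476, 9794 and 8185 CPM per kb, the highest mean over the 4 embryos after Actb, Gm1821 and Ubb. The metallothionein Mt1, a zinc and copper buffer, was at 7420.3, 7893, 4643 and 4500.3 CPM per kb. Its neighbour Mt2 was at 3352, 3967, 2475 and 2429 CPM per kb, lower in every embryo by 1.85-fold to 2.21-fold. For both metallothioneins the wild-type embryos lay above the heterozygous embryos, an order that 17.5% of the genes of at least 32 CPM had.

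**Figure D1:**
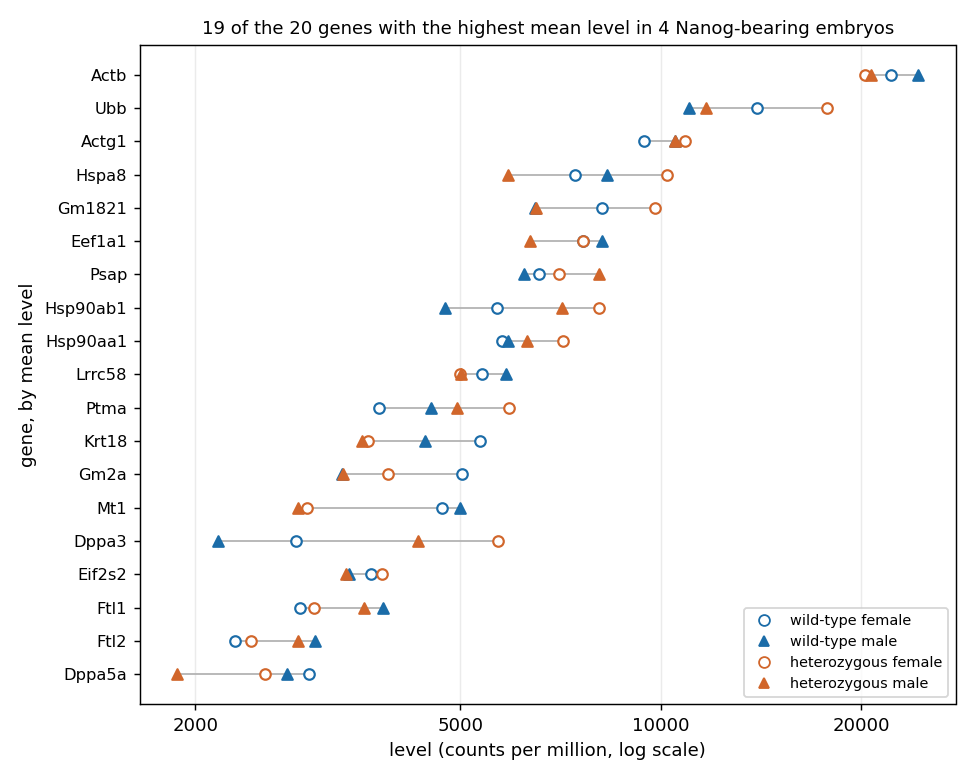
Level in CPM (log scale) of 19 of the 20 genes with the highest mean, with open circles for females, filled triangles for males, blue for wild type and orange for heterozygous, and a grey line from the lowest to the highest embryo. Actb sits at 20271 to 24360 in all 4 embryos, while Dppa3 spans 2166 to 5697 with both heterozygous embryos above both wild-type embryos. That order was found for 18.6% of the genes of at least 32 CPM.

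Pluripotency genes were led by the Dppa family. Of 29 epiblast and pluripotency genes in the table, 20 were expressed, with a median of the mean level of 43.4 CPM against 1.81 CPM over all genes of the table. The summed level was 9221, 8398, 12006 and 9757 CPM, a mean share of 0.985% ± 0.154 of counts (SD, n = 4). Dppa3 and Dppa5a made up most of it. By CPM per kb, Dppa3 was at 3396, 2599.7, 6839 and 5184 and Dppa5a at 4777, 4435, 4107 and 3032, so Dppa5a was ahead in both wild-type embryos and Dppa3 in both heterozygous embryos. Next by CPM came Fbxo15, a substrate adaptor of a ubiquitin ligase and a classic target of the pluripotency network, at 325, 416, 537 and 556 CPM. Pou5f1, which encodes OCT4, was at 390.5, 421, 449 and 561 CPM, and Sall4, a zinc finger protein of the inner cell mass, at 529, 377, 484 and 389 CPM. These last 3 genes ranged less than 2-fold between embryos.

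Among the core factors the levels fell over a wide range. By CPM per kb of transcript, Pou5f1 stood at 287, 309, 329 and 412 and exceeded Nanog at 62, 48.5, 39.6 and 24.2 in every embryo, by 4.63-fold to 16.99-fold. Zfp42, which encodes REX1, was at 326, 399, 491 and 420.2 CPM, and Tdgf1, the NODAL co-receptor CRIPTO, at 262, 224, 127 and 189 CPM. Esrrb, an orphan nuclear receptor of naive pluripotency, was at 28.1, 28.6, 45 and 14.8 CPM. Sox2, the partner of OCT4 on DNA, was at 9.69, 19.6, 8.21 and 3.79 CPM, under 10 CPM in 3 of the 4 embryos. Klf2, a zinc finger factor of naive pluripotency, was at 5.63, 7.54, 3.7 and 0.609 CPM. Fgf4, the FGF ligand that epiblast cells send to primitive endoderm cells, was at 2.92, 15.5, 0.688 and 0.0677 CPM, which in the heterozygous male was 1 count and in the heterozygous female 16. The wild-type male was thus highest, and the heterozygous male lowest, for Sox2, Klf2 and Fgf4 alike. Both heterozygous embryos lay below both wild-type embryos for each of these 3, with the heterozygous female close under the wild-type female for Sox2. Of the genes of at least 32 CPM, 17.5% had this order. These 3 genes lie under that level, where the share was not counted. None of the 3 passed the edgeR test between genotypes.

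Primitive endoderm genes had the lowest sum of the 3 lineage lists, with an endocytic adaptor, an endocytic receptor and matrix genes ahead of most transcription factors. Of 26 genes, 12 were expressed and 5 (Sox7, Foxq1, Foxa2, Ttr and Rspo3) had 0 counts in all 4 embryos. The summed level was 3522, 2804, 2428 and 2785 CPM, highest in the wild-type female. Dab2, an endocytic adaptor, supplied about as much as all other members together at 1795, 1297, 1258 and 1453 CPM, and Lrp2, the endocytic receptor megalin, was at 357, 408, 407 and 468 CPM. Both also serve absorptive epithelia, the trophectoderm included, and bulk data cannot place them in a tissue. Matrix genes followed. Lamb1, a laminin chain of the basement membrane, was at 266, 187, 137 and 152 CPM and Sparc, a collagen-binding matrix protein, at 249, 178, 67.6 and 113 CPM. The wild-type embryos lay above the heterozygous embryos for both, an order that 17.5% of the genes of at least 32 CPM had.

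The transcription factors of the lineage differed from each other in level. Gata6 was at 37.6, 35.6, 60.9 and 47.8 CPM per kb and Gata4, which acts after it, at 2.68, 1.38, 4.71 and 0.0199 CPM per kb, which in the heterozygous male was a single count. Sox17, a further factor of primitive endoderm, was at 1.78, 2.58, 3.09 and 1.9 CPM in a narrow range. Pdgfra, the PDGF receptor that marks the committed lineage, was at 112, 45.5, 37.9 and 85.2 CPM, and Col4a1, a type IV collagen chain, at 43.8, 60.9, 19.7 and 71.5 CPM. For Gata6 both heterozygous embryos were above both wild-type embryos, an order that 18.6% of the genes of at least 32 CPM had. For Pdgfra the order mixed the genotypes. None of Gata6, Gata4, Sox17, Pdgfra, Dab2, Lamb1 and Col4a1 differed between genotypes at an adjusted p under 0.05 with edgeR.

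Trophectoderm genes had the highest sum of the lineage lists in every embryo except the heterozygous female, where the epiblast list was higher. Of 26 genes, 21 were expressed, the median of the mean level was 82 CPM, and the sums were 13813, 13595, 11284 and 11906 CPM, a share of 1.26% ± 0.125 (SD, n = 4). The embryo keratins led. Krt18 was at 3719.7, 3078, 2532 and 2478 CPM per kb and its filament partner Krt8 at 1255, 1512, 912 and 1253 CPM per kb, with Krt18 ahead in each embryo by 1.98-fold to 2.96-fold. Cldn4, a tight junction claudin, was at 1039, 1117, 962 and 1383 CPM. Sfn had a coefficient of variation (CV, the SD over the mean) of 10.4%, against a median of 20.04% over the genes of at least 32 CPM. Id2, an inhibitor of helix-loop-helix factors and an early trophectoderm gene, was at 953, 990.0, 1199 and 530.4 CPM, and the heterozygous male was the low embryo. Dppa1, named after its values were seen, was the steadiest gene of the list at 572, 535, 583 and 595 CPM, with a CV of 4.54%.

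Of the transcription factors of trophectoderm, Gata3 was at 265, 316, 169 and 223 CPM per kb and Cdx2, the caudal-type factor that keeps trophoblast identity, at 30.1, 26.2, 25 and 41.5 CPM per kb. Gata3 was the higher in every embryo, by 5.37-fold to 12.1-fold. Eomes, a T-box factor of trophoblast stem cells, was at 45.9, 31, 84.2 and 31.9 CPM and was highest in the heterozygous female. Elf5, an ETS factor of later trophoblast, was at 18, 11, 31.8 and 3.93 CPM, from 3.93 CPM in the heterozygous male to 31.8 CPM in the heterozygous female. The heterozygous pair thus spanned the whole range for Elf5, with both wild-type embryos between them. The other marker of the fixed trophectoderm set was not analysed here.

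**Figure D2:**
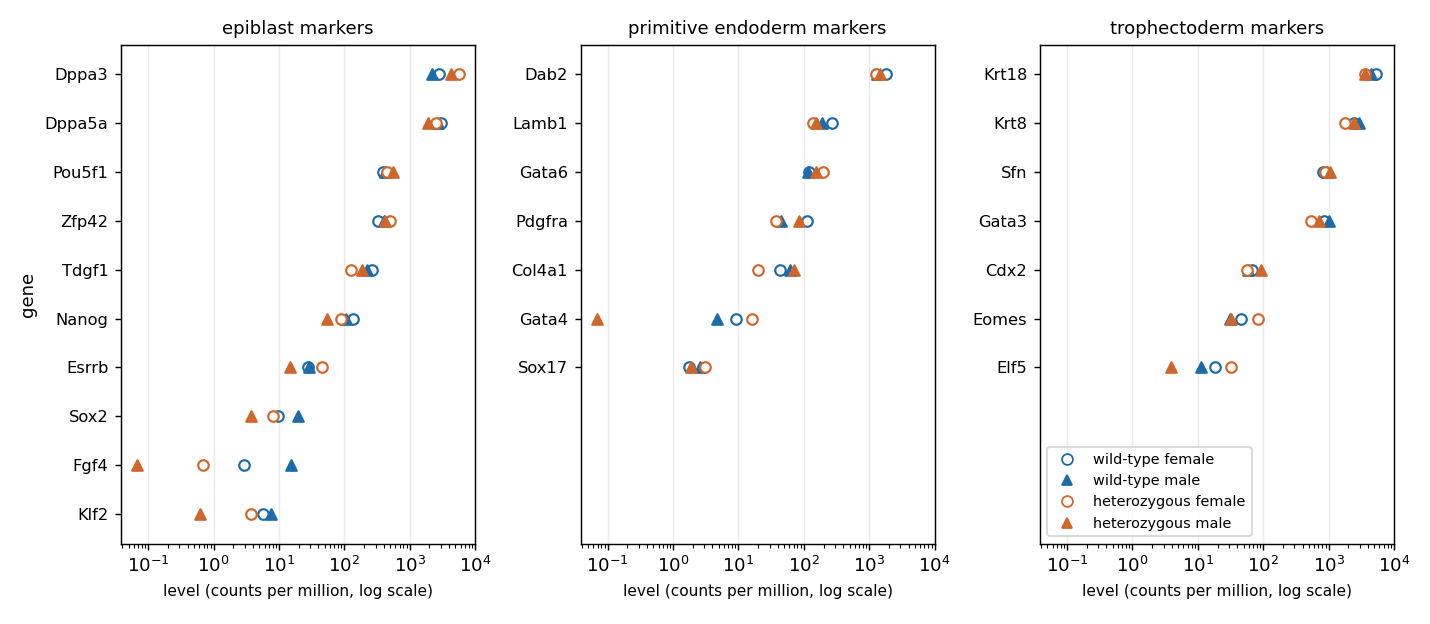
Level in CPM (log scale) of epiblast, primitive endoderm and trophectoderm markers, 1 point per embryo with the symbols given in the key. Sfn lies within 823 to 1052 in all 4 embryos, while Gata4, Fgf4 and Klf2 are under 1 in the heterozygous male.

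Genes of the blastocyst's epithelium differed little in their sum between embryos. All 24 genes of polarity, junctions and cavity formation were expressed, and their sum was 5529, 5207, 5066 and 5436 CPM, a range of 1.09-fold between embryos. Cdh1, E-cadherin, was at 935, 1019.5, 849.8 and 955 CPM and Ctnna1, which ties it to actin, at 946, 757, 1019 and 862 CPM. Cldn7 was at 458, 562, 429.6 and 482 CPM and F11r, the junctional adhesion molecule JAM-A, at 374, 466, 455 and 453 CPM. Aqp3, a water and glycerol channel, was at 573, 298, 389.9 and 514 CPM and was lowest in the wild-type male. By CPM per kb, Cldn7 exceeded Cldn6 in every embryo, by 6.88-fold to 13.2-fold. Atp1b1, the main beta subunit of the sodium pump that drives fluid into the cavity, exceeded Atp1b3 by 1.66-fold to 3.55-fold per kb. These isoform pairs and those below were picked after the values were seen.

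Few genes of the lists for earlier and later stages were expressed. Dppa3, also a maternal factor, was counted with the pluripotency genes and is not in these lists. Of 14 genes of the 2-cell stage in the table, 7, including Zscan4c, Zscan4d and Zfp352, had 0 counts in all 4 embryos, and only Eif1a, a translation initiation factor gene, and Sp110 were expressed. Their summed level was 372, 366, 438 and 375 CPM, nearly all of it from Eif1a at 342, 336, 387 and 336 CPM, a gene whose function is not tied to that stage. Of 19 oocyte and maternal-effect genes, Ooep, a component of the maternal subcortical complex, was the only expressed gene at 54.1, 42.7, 42.4 and 52.5 CPM, and 6 had 0 counts in all 4 embryos. None of 18 genes of later germ layers and none of 39 Hox genes was expressed. The highest of the germ layer genes was Gata1, at 15.3, 3.26, 24.8 and 10.3 CPM, under 10 CPM in the wild-type male alone. The Hox sums were 13.8, 7.42, 11.1 and 5.42 CPM over 39 genes. Of 23 imprinted genes 4 were expressed, which were Snrpn at 223, 251, 294 and 289.9 CPM, Slc38a4 at 299, 223, 149.9 and 232 CPM, Igf2r at 95.8, 97.9, 89.3 and 156 CPM and Kcnq1ot1 at 94.4, 54.1, 45.8 and 60.5 CPM. They encode an RNA-splicing protein, an amino acid transporter, a lysosomal sorting receptor and a long antisense RNA.

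Translation was the largest class. The 85 cytosolic ribosomal protein genes summed to 67082, 64568, 59701 and 61644 CPM, a share of 6.32% ± 0.325 of all counts (SD, n = 4), and 82 of them were expressed. Rpl4 was the highest by mean CPM at 2151, 2216, 2196 and 2274 CPM. By CPM per kb of transcript Rpl41, a component of the large subunit, had the highest mean, at 4733, 4245, 3803 and 4314. Ribosomal protein genes have many processed copies in the genome, so their counts are uncertain to the extent that reads were shared. All 36 translation factors were expressed and summed to 34351, 36966, 35943 and 33631 CPM. They were led by Eef1a1, then Eif2s2, a subunit of the factor that brings the initiator tRNA, at 3671, 3402, 3814 and 3363 CPM, and Eef2, the translocase, at 2632, 2433, 2405 and 2292 CPM.

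Ribosomal protein genes are known for a stretch of pyrimidines (C or T) at their transcription start, which couples their translation to growth signals. The start sites in RefSeq (build GRCm38.p6) were searched for runs of at least 8 pyrimidines from 50 bases before to 50 bases after the start on the transcript strand. This was done after the values were seen, and a match is a description and not a mapped start. Of 61 ribosomal protein genes that had a mean of at least 32 CPM and a window in the table, 50 (82.0%) held such a run, against 35.7% of all 32851 windows. Among all expressed genes of at least 32 CPM with a window the share was 36.5%, among translation factors 51.9% and among respiratory chain genes 31.7%. On the other strand, read as purine runs, the share was 24.6% of ribosomal protein genes and 38.1% of all windows. The windows of the 8 ribosomal protein genes with the highest mean CPM among those with a window are shown in that order, from 40 bases before to 20 bases after the start, 5′ to 3′, with pyrimidine runs of 8 or more in capitals. Of these 8 windows, 4 held a run in the stretch shown (Rpl4, Rps18, Rps6 and Rpl14) and 4 did not. They lie at chr9:64173347-64173406 (plus strand, Rpl4), chr10:128549149-128549208 (minus, Rpl41), chr5:115559427-115559486 (plus, Rplp0), chr17:33955646-33955705 (minus, Rps18), chr4:86857348-86857407 (minus, Rps6), chr7:99483690-99483749 (minus, Rps3), chr9:120571477-120571536 (plus, Rpl14) and chr3:86142649-86142708 (minus, Rps3a).
Rpl4: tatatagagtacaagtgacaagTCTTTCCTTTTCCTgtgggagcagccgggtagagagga
Rpl41: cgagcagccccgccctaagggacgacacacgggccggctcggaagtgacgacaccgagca
Rplp0: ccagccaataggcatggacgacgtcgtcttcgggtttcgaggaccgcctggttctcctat
Rps18: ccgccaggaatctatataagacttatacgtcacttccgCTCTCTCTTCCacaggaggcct
Rps6: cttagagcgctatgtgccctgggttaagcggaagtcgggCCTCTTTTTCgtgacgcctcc
Rps3: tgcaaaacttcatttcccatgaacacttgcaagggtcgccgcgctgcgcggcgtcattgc
Rpl14: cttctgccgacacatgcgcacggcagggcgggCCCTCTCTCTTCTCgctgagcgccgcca
Rps3a: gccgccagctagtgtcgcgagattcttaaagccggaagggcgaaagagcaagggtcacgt

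All 8 genes were even between embryos, whether or not a run was shown. Rps18 was at 1783, 1641, 1418 and 1558 CPM, Rps6 at 1670.2, 1465, 1689.8 and 1567 CPM and Rpl14 at 1497, 1471, 1302 and 1425 CPM, and with Rpl4 their CVs lay between 2.31% and 9.55%. Of the genes with no run in the stretch shown, Rpl41 was at 2409, 2161, 1936 and 2196 CPM. Rplp0 was at 1843, 2021, 1642 and 1794 CPM and Rps3 at 1685, 1581, 1443 and 1580.2 CPM. Rps3a was at 1291, 1376, 1326 and 1304 CPM, and the CVs of the genes with no run shown lay between 2.85% and 8.9%.

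Among energy genes, those of the mitochondrial respiratory chain had the highest sum, and theirs was also the longest list. Sums of lists of unlike length do not rank the level per gene. Of 80 nuclear-encoded respiratory chain and ATP synthase genes, 78 were expressed, with sums of 22965, 23726, 18920.3 and 20968 CPM. Atp5b and Atp5a1, the catalytic and alpha subunits of ATP synthase, were at 1845, 2177, 1241 and 1601 CPM and 1722, 1917, 1703 and 1733 CPM. Genes of the mitochondrial genome were not analysed here. All 23 genes of pyruvate oxidation and the citrate cycle were expressed and summed to 7233, 7204, 6895 and 6779.9 CPM. Mdh2, mitochondrial malate dehydrogenase, led at 1139, 1216, 1296 and 1326 CPM. Pdha1, the X-linked subunit of pyruvate dehydrogenase, was at 568, 423, 643 and 471 CPM, with both females above both males. That order was found for 15.5% of the genes of at least 32 CPM. Among the X-linked genes of that level, Xist and Tsix left out, the share was 54.2%.

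Of 22 glycolysis and glucose uptake genes 16 were expressed, with sums of 4979, 5256, 4735 and 4882 CPM. Aldoa, aldolase, was at 1363, 1648, 1374 and 1687 CPM and Slc2a3, the glucose transporter GLUT3, at 1126, 823, 966 and 741 CPM. Within pairs of related genes, 1 member was ahead in all 4 embryos. By CPM per kb Slc2a3 exceeded Slc2a1 (GLUT1) by 6.22-fold to 23.2-fold and hexokinase Hk2 exceeded Hk1 by 14.1-fold to 158-fold. The large range of the latter came from Hk1, at 0.571, 3.48, 0.402 and 4.62 CPM per kb. Gapdh and Ldha, usually abundant, were only at 38.6, 69.1, 42.9 and 44.4 CPM and 8.67, 16.2, 35.2 and 13.9 CPM, and Ldhb was at 0, 1.02, 0 and 0.0677 CPM. Gapdh and Ldha have many near-identical copies in the mouse genome, and what part shared reads had in these counts was not tested.

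Lipid and amino acid genes showed the embryo to embryo differences of single enzymes. Of 29 cholesterol and lipid genes 28 were expressed, led by Fabp3, a fatty acid-binding protein, at 3410.0, 1883, 1740.2 and 1997 CPM, highest in the wild-type female. The desaturases Scd2 and Scd1 were at 423, 432, 705 and 523 CPM and 405, 362, 672 and 403 CPM and were both highest in the heterozygous female. A pair of cholesterol synthesis genes had another order. Sqle, squalene epoxidase, was at 71.3, 160.1, 89.2 and 229.8 CPM and Sc4mol, a sterol demethylase, at 66.6, 198, 134 and 259 CPM. Both, named after their values were seen, were highest in the heterozygous male. Of 19 threonine, serine and folate pathway genes 16 were expressed. Mat2a, which makes S-adenosylmethionine, was at 552, 551, 472 and 541 CPM, while Phgdh and Psat1, which open serine synthesis, were at 391, 229, 254 and 456 CPM and 237, 206, 367 and 461 CPM and were both highest in the heterozygous male.

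Genes of protein turnover and folding were expressed almost throughout. Of 22 lysosome and endocytosis genes 21 were expressed, with sums of 14783, 13940.3, 15141 and 17346 CPM. Psap was followed by Cd63, a late endosome tetraspanin, at 1492, 1594, 1480.4 and 1823 CPM. Of 48 proteasome genes 43 were expressed, with sums of 10982, 12786, 14195 and 13890.1 CPM, lowest in the wild-type female. All 25 chaperones were expressed and summed to 32052, 32141, 38764 and 31862 CPM, and the heterozygous female stood above the other 3, which lay between 31862 and 32141 CPM. Among 25 redox, iron and metal genes, 20 were expressed. Behind Mt1 stood the ferritin light chain Ftl1, at 2963, 3959, 3117 and 3706 CPM per kb against 397, 633, 307 and 585 CPM per kb for the heavy chain Fth1.

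Most cell cycle and chromatin genes were expressed. Of 34 cell cycle genes 28 were expressed, led by Rrm2, the regulated subunit of ribonucleotide reductase, at 909, 1068, 1580.4 and 1243 CPM, and Ccnb1, the mitotic cyclin B1, at 555, 588, 586 and 548 CPM. The G1 kinase Cdk4 was at 111, 184, 107 and 120.1 CPM per kb and Cdk6 at 0.646, 0.638, 0.112 and 0.717 CPM per kb. Among D-type cyclins Ccnd3 was at 26.5, 23.2, 20.4 and 31.6 CPM per kb, against 0.0339, 1.59, 1.44 and 1.34 CPM per kb for Ccnd1. Of 33 chromatin and DNA methylation genes 32 were expressed. H3f3b and H2afz, replacement histone genes, led at 1514, 1904, 2339 and 2511 CPM and 2049, 2009, 1974 and 1778 CPM. The 5-methylcytosine oxidase gene Tet2 exceeded Tet1 by 2.95-fold to 6.23-fold per kb, and the methyltransferase gene Dnmt3b exceeded Dnmt3a by 2.98-fold to 5.17-fold per kb, in all 4 embryos.

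Signalling genes had lower levels. Of 29 FGF and ERK genes 18 were expressed, with a median of the mean level of 22.7 CPM. Nras was at 146, 182, 150.4 and 124 CPM and the receptor Fgfr2 at 113, 87.5, 98 and 79.7 CPM. Per kb Fgfr2 exceeded Fgfr1 by 2.53-fold to 8.48-fold. The feedback genes Spry2 and Dusp6, which ERK induces and which restrain it, were at 156, 187, 121 and 97.9 CPM and 106, 139, 67.9 and 35.3 CPM. Both heterozygous embryos were below both wild-type embryos for each gene, an order that 17.5% of the genes of at least 32 CPM had. Neither passed the edgeR test between genotypes. Of 26 Nodal and BMP genes 11 were expressed, led by Id2 and Tdgf1, while Nodal, Lefty1, Lefty2 and Bmp7 had no count in any embryo. Of 17 LIF and STAT3 genes 6 were expressed, led by Stat3 at 131, 179, 105 and 90.7 CPM and Jak1 at 76.6, 80.4, 68.2 and 91.1 CPM. Of 20 Hippo genes 13 were expressed, among them Yap1, the co-activator, at 74.7, 64.2, 52.6 and 54.9 CPM, and Tead4, its DNA-binding partner in trophectoderm, at 23.3, 51.1, 54.3 and 50.4 CPM, lowest in the wild-type female. Amotl2, an inhibitor of YAP, was at 60.4, 104, 69.1 and 26.9 CPM.

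The cytoskeleton held the highest sum after ribosomal proteins. Of 29 cytoskeleton genes 26 were expressed, with sums of 46738, 53545, 45281 and 46874 CPM, of which Actb gave close to 1 in 2. Vim, the mesenchymal filament protein vimentin, was at 0.508, 0, 4.94 and 0.0677 CPM beside the epithelial keratins described above, and was named after its values were seen. Stress genes were less abundant. Of 24 immediate-early and stress genes 8 were expressed, with sums of 797, 873, 841 and 779.8 CPM. Hsph1, an HSP110 chaperone, led at 256, 214, 256 and 236 CPM, followed by Trp53, which encodes p53, at 102, 113, 126 and 73.1 CPM. The inducible HSP70 gene Hspa1a was at 0.55, 0.31, 0.43 and 0.0677 CPM and the immediate-early gene Fos at 0.127, 2.17, 11.2 and 0 CPM, both named after their values were seen. Fos was thus above 10 CPM in the heterozygous female alone.

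**Figure D3:**
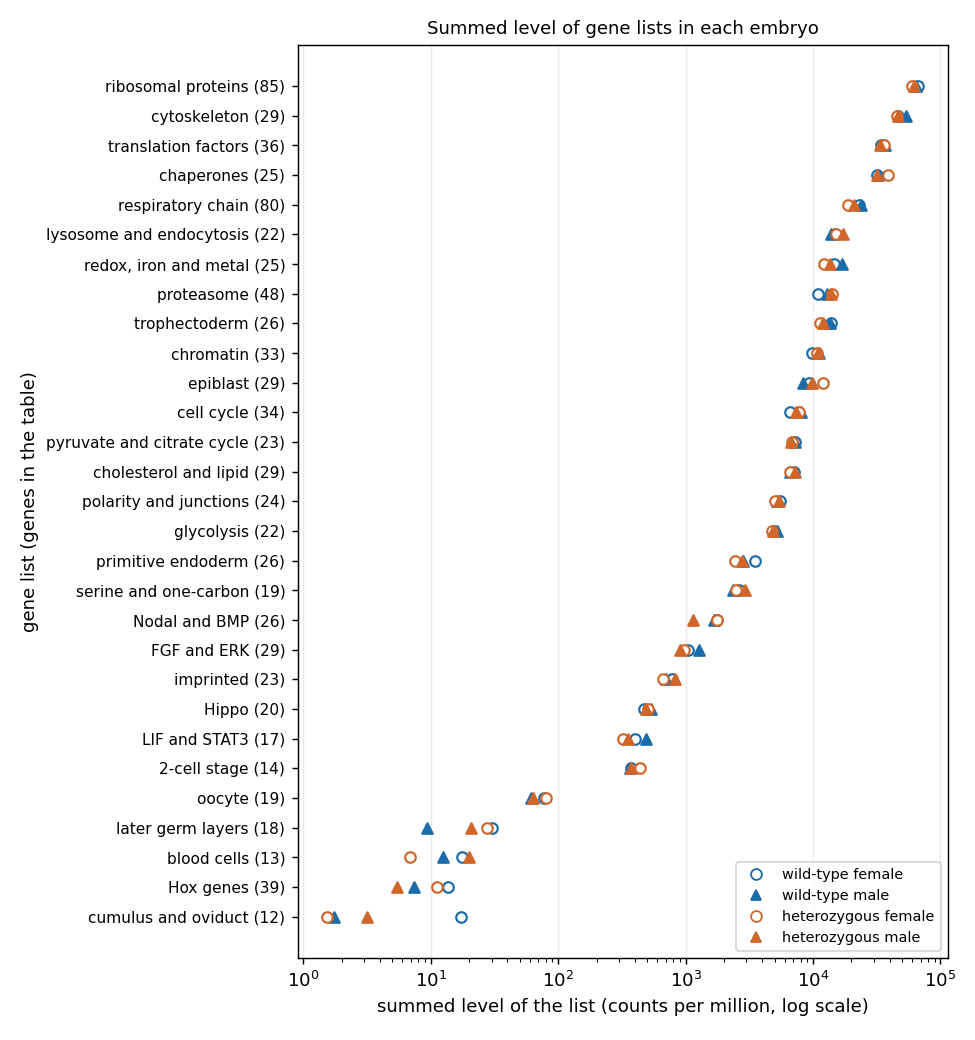
Summed level of each gene list in CPM (log scale), 1 point per embryo, with the number of genes in the table in brackets. Ribosomal proteins lead with 59701 to 67082, and the lists for oocyte, later germ layers, blood, Hox genes and cumulus or oviduct lie under 100 in every embryo.

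The spread between embryos was then described over the same 4893 genes. The median CV over the 4 embryos was 20.04%, with quartiles of 13.2% and 29.0%, whereas counting alone would give a median of 2.38%. The highest and lowest embryo differed by less than 2-fold for 3801 genes (77.7%). A CV of at least 50% was found for 192 genes and of at least 100% for 19. The median CV was 23.4% at 32 to 100 CPM, 16.8% at 100 to 320 CPM, 12.7% at 320 to 1000 CPM and 13.7% above. The rank by CV uses the levels themselves, so what follows is a description with no test.

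The steady end was held by the ribosome. Of 79 ribosomal protein genes of at least 32 CPM, 44 were among the 489 steadiest, which had CVs up to 8.71% and held 9.99% of all genes ranked. Translation factors placed 16 of 36 there, respiratory chain genes 19 of 77 and chaperones 7 of 25. None of 17 epiblast genes, none of 11 primitive endoderm genes and 1 of 20 trophectoderm genes, Dppa1, was in it. Median CVs were 8.02% for ribosomal proteins, 10.3% for translation factors, 23.8% for trophectoderm, 23.4% for epiblast, 29.6% for FGF and ERK genes and 32.3% for primitive endoderm. Levels differ between these lists, and level goes with spread as given above. Among the 489 most variable genes, with CVs of at least 38.99%, were 5 of 11 primitive endoderm genes (Apoe, Lama1, Sparc, Pdgfra and Col4a1), 4 of 11 FGF and ERK genes and 6 of 26 cholesterol and lipid genes.

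The steadiest genes of at least 100 CPM were of mixed function. Txn2, mitochondrial thioredoxin, was at 139, 140.1, 139.7 and 139 CPM, a CV of 0.304% where counting alone gives 1.82%. Vdac2, a pore of the outer mitochondrial membrane, was at 357, 351, 351 and 359 CPM, and Wwp2, a ubiquitin ligase, at 138, 137, 137 and 141 CPM. Btf3, a part of the nascent chain complex, was at 604, 592, 597 and 613 CPM. The further names were Ckmt1, Tnpo3, Hdac1, Slc25a4, Tes, Oaz1, Ctnnb1 and Rpl4, all with CVs of 1.56% to 2.31%. Oaz1 held a nearly fixed ratio to the predicted gene Gm9786, 1.024 to 1.027, and reads of this pair may be shared. Hdac1, the histone deacetylase, was at 280.1, 274, 279.8 and 285 CPM and Ctnnb1, beta-catenin, at 185, 193, 185 and 184 CPM. The next gene, Akr1a4, had a CV of 2.33%. With so many genes and 4 embryos the exact order was not stable. Only 4 of the 12 stayed among the 12 steadiest with TMM scaling, and between 1 and 5 when an embryo was left out.

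The most variable genes mostly had a single embryo apart. Pyy, the gut peptide YY, was at 302, 17.9, 0.0859 and 2.17 CPM and Adh1, an alcohol and retinol dehydrogenase, at 1707, 231, 266 and 135 CPM, both far highest in the wild-type female. Unc93a and Wbp5 were also highest there, at 138, 12.6, 17.2 and 24.2 CPM and 124, 36.6, 9.88 and 11.6 CPM. Oas1f, of the interferon-induced oligoadenylate synthetase family, was at 0.254, 0.031, 155 and 10.6 CPM, almost confined to the heterozygous female. Ly6a, the surface protein SCA-1, was at 41.8, 105, 1203 and 118 CPM and its relative Ly6i at 7.45, 19.1, 120.01 and 24.2 CPM, again highest in the heterozygous female, and reads of these 2 may be shared. Pgam2, the muscle phosphoglycerate mutase, was at 10.4, 13.6, 154 and 7.25 CPM with the same embryo apart. In the wild-type male Pfn1, the actin-binding profilin, and H2afx, the histone of DNA damage foci, stood out at 201, 1116, 115 and 177 CPM and 18.1, 152, 14.8 and 38.7 CPM. The Y-linked Eif2s3y and Ddx3y completed the 12, and the next gene was Apoe, an apolipoprotein, at 77.1, 207, 10.9 and 26.3 CPM. Of the 12, 3 stayed when the heterozygous female was left out and 5 when the wild-type female was.

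Mt3, a metallothionein, was the only gene at 32 CPM or more in a single embryo and at 3 counts or fewer in the other 3. It was at 40.99 CPM in the heterozygous female, with 954 counts, and at 0 counts in the others. No gene of at least 32 CPM in 3 embryos dropped to 3 counts or fewer in the fourth.

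The heterozygous female was the embryo with most low genes. At most 1 in 2 of the next lowest embryo was found for 89 genes in it, against 21, 20 and 20 in the wild-type female, wild-type male and heterozygous male. Tmsb4x, the actin-sequestering thymosin beta 4, was at 617, 781, 48.5 and 781 CPM and Rpl13, a ribosomal protein gene, at 1034, 1506, 195 and 748 CPM. Bsg, the cell surface protein basigin, was at 377, 573, 166 and 448 CPM. These 89 genes had a median transcript GC content of 54.6% against 49.5% over all 4893 genes, and the medians of the genes low in the other embryos were 50.4%, 52.1% and 50.1% in that order. Across genes, the deviation of an embryo from the mean of all 4 had a Spearman correlation with GC content of 0.09, 0.12, -0.19 and 0.01, lowest in the heterozygous female. The part of base composition in these low values was not tested. At least 2 times the next highest embryo was found for 21, 30, 10 and 16 genes, with median GC contents of 54.0%, 53.2%, 47.0% and 49.8%. The 30 of the wild-type male included Pfn1, Slc25a3, Cox5a and Pdia3, and for each of these 4 the heterozygous female was the lowest embryo. Cox5a, a subunit of cytochrome oxidase, was at 57.1, 248, 33.2 and 60.4 CPM, and Slc25a3, the mitochondrial phosphate carrier, at 265, 573, 126 and 269 CPM. The genes of this paragraph were named after their values were seen.

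**Figure D4:**
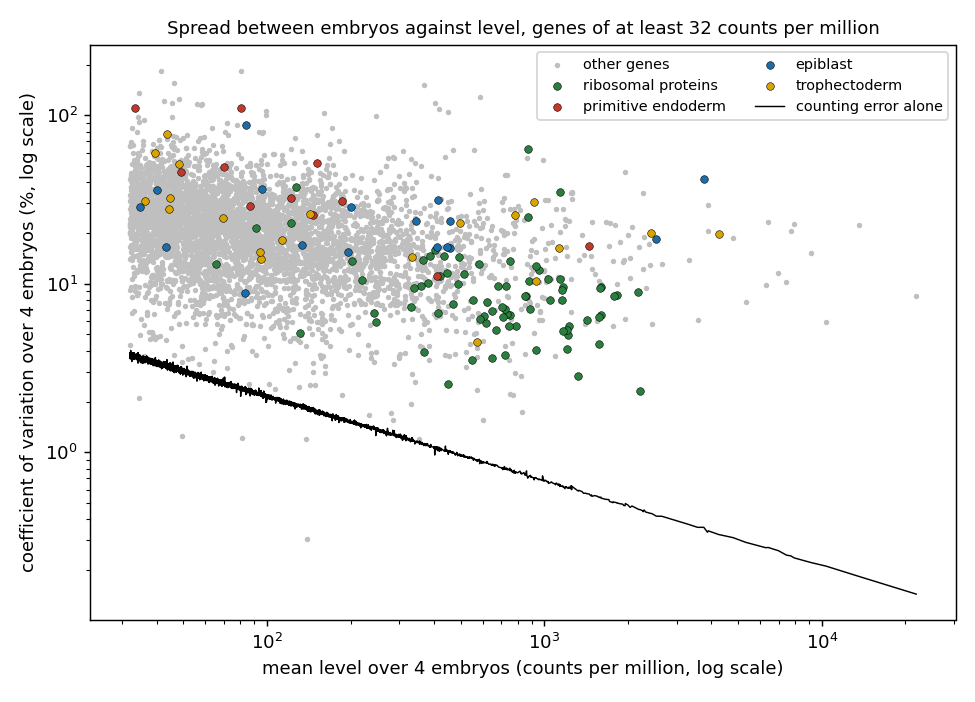
Coefficient of variation over the 4 embryos (%, log scale) against mean level (CPM, log scale) for the 4893 genes of at least 32 CPM, with 4 gene lists coloured and the value that counting error alone would give as a black line. Ribosomal protein genes lie low, with a median of 8.02%, and primitive endoderm genes high, with a median of 32.3%.

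Genotype and sex were tested within the 4 embryos by an additive edgeR fit, which leaves 1 residual degree of freedom. Of 12370 genes tested, 1 (0.00808%) was called between heterozygous and wild-type embryos at an adjusted p under 0.05. An unadjusted edgeR p under 0.05 was found for 644, about as many as that cut gives when no gene differs. The gene called was Oas1f, at 9.06 ± 0.58 (log2 fold change, SE) and an edgeR adjusted p of 0.0274. A fit on 3 embryos can hold only 1 factor. With sex dropped as a term, no gene was called with all 4 embryos, without the heterozygous female or without either wild-type embryo, and 2 were called without the heterozygous male. Next by p were Apoe, at -2.88 ± 0.29 with an edgeR adjusted p of 0.226, and Dppa3, at 1.03 ± 0.14 with an edgeR adjusted p of 0.913. Both heterozygous embryos were above both wild-type embryos for Dppa3, and below for Apoe. Of the genes of at least 32 CPM, 18.6% had the former order and 17.5% the latter. DESeq2 with the same terms called 127 genes, and the edgeR fit called none with no low-count filter, with the spread taken from all 8 embryos of the series, or without sex as a term.

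Between females and males 4 genes were called, 0.0323% of those tested. An unadjusted edgeR p under 0.05 was found for 616, again about as many as that cut gives when no gene differs. Xist, the RNA that coats the inactive X chromosome, was at 892, 19, 728 and 32.3 CPM, and its antisense partner Tsix at 314, 10.3, 295 and 22.6 CPM. The counting is not stated to use strand, so reads of these overlapping genes cannot be told apart. The log2 fold change of female over male was 5.06 ± 0.30 for Xist (edgeR adjusted p = 0.00829) and 4.35 ± 0.35 for Tsix (edgeR adjusted p = 0.029). Eif2s3y, a Y-linked initiation factor gene, was at 0.254, 131, 0.129 and 103 CPM, and Ddx3y, a Y-linked RNA helicase gene, at 1.4, 98.8, 1.42 and 130.1 CPM. Their log2 fold changes of female over male were -9.21 ± 0.48 and -6.30 ± 0.39 (edgeR adjusted p = 0.00753 and 0.00829). All 4 embryos therefore matched the sex in their labels. DESeq2 called 107 genes, and edgeR with the spread of all 8 embryos called only Xist.

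X-linked genes as a group went with sex. The following was added after the values were seen. For 153 X-linked genes of at least 32 CPM, Xist and Tsix left out, the median ratio of the female to the male mean was 1.34, against 0.978 for 4637 autosomal genes. In the 4 pairings of a female with a male the X-linked median was 1.35, 1.36, 1.35 and 1.41. Both females were above both males for 83 of the 153 genes (54.2%), against 15.5% of all 4893 genes. Both females were below both males for 6 (3.92%), against 19.1% of all genes. Huwe1, a large ubiquitin ligase, was at 565, 177, 451 and 247 CPM, Uba1, the ubiquitin-activating enzyme, at 846, 448, 659.8 and 461 CPM and Rpl10, a ribosomal protein gene, at 1577, 862, 1353 and 747 CPM. Hprt, the purine salvage enzyme, was at 1633, 1367, 2055 and 1771 CPM with the sexes overlapping, so the X-linked genes were not uniform. The median CV was 27.9% for the X-linked genes and 19.8% for autosomal genes.

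**Figure D5:**
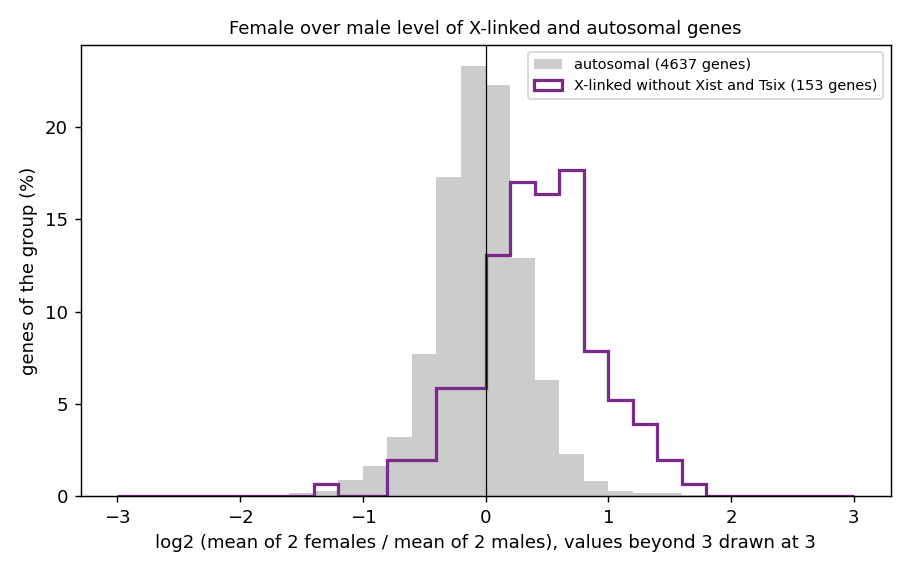
Distribution of the log2 ratio of the mean of the 2 females to the mean of the 2 males, as a percentage of genes, for 153 X-linked genes (purple line) and 4637 autosomal genes (grey). The X-linked genes are shifted to the right, with a median ratio of 1.34 against 0.978.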

How the data were processed

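RNA was measured in 4 Nanog-bearing blastocysts. Per the labels' protocols, embryo libraries were made from cDNA amplified with a SMARTer kit followed by a TruSeq DNA kit. Per the submitters' processing notes, TopHat 1.3.1, the mouse build mm9 and edgeR were used. Which program, annotation and strand setting served for counting, and how reads with several matches were treated, is not given in the sources used here. The authors deposited whole-number read counts per gene symbol, and the 22 value columns of the other deposited table were not used. All 21881 rows named a gene.

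CPM is the count over the embryo's total. Genes were matched to GENCODE M21 by symbol or older symbol, for transcript length and GC content of the transcript with the longest coding sequence. That source replaced the coding length from RefSeq proteins that had been planned. Total counts of 14768624 to 32231620 per embryo keep counting error small. Genotype (2 embryos each) and sex (2 each) were tested with the edgeR 4.0.16 quasi-likelihood test (R 4.3.3, limma 3.58.1, TMM scaling, robust fit, low-count filter, Benjamini-Hochberg adjustment, threshold 0.05). Nothing in the labels says which embryos shared a mother or batch, so p-values measure only the spread between these embryos. The test was tested on simulated data for these 4 embryos, with 7968 genes simulated. It called 100 of 100 genes changed 4-fold and 100 of 100 changed 16-fold, with 3 false calls. In the embryos themselves Apoe, at a log2 fold change of -2.88 between genotypes, was not called (edgeR adjusted p = 0.226). The simulation therefore does not say how large a change the test could miss in these embryos. DESeq2 1.42.0, other scalings, filters, level minimums and left-out embryos were tried as alternatives. Python 3.11.15, numpy 2.4.6, pandas 2.3.3, scipy 1.17.1 and matplotlib 3.10.9 did the rest. Start-site windows came from RefSeq, whose build differs from that of the reads, and were used only to describe sequence.

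Named genes are the 20 highest by mean CPM, up to 5 highest members of each gene list, and the lineage markers. To these were added the 12 steadiest of at least 100 CPM, the 12 most variable of at least 32 CPM, genes at 3 counts or fewer in 1 or 3 embryos but at least 32 CPM in the rest, and the leading genes of each test. Predicted genes were left out of the last 3 kinds, and some genes that meet the rule are not reported here. The X-linked genes, pairs of related genes, start-site windows and genes set apart in a single embryo were added after the values were seen. The members and lists were chosen with earlier results of these data known.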

Additional observations from a re-analysis of the deposited data

Results flagged for a closer look

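Every gene level named above, each summed list and 6 depth measures were examined for an embryo far from the other 3, 203 values in all. An embryo counted as apart when its gap to the nearest other, as a share of the whole range, exceeded Dixon's critical value for 4 samples. Chance flags about 1 in 20 groups, and 32 of the 203 (15.8%) were flagged, some of them genes that had been named for their spread. The wild-type female was apart in 12, the heterozygous female in 13, the wild-type male in 6 and the heterozygous male in 1.

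In the wild-type female the high values were Adh1 at 1707 CPM, Fabp3 at 3410.0 CPM, Hk2 at 460.4 CPM, Pyy at 301.7 CPM and Unc93a at 138 CPM. The laminin gene Lama1 was at 87.97 CPM there, against 9.24 to 20.99 CPM in the others. Cyp11a1, a steroid-synthesis enzyme of the cumulus and oviduct list, was at 15.66 CPM, and the sum of that list at 17.43 CPM. Low values in the same embryo were Atp1b3 at 13.84 CPM, Ccnd1 at 0.127 CPM, F11r at 374.1 CPM and Tead4 at 23.31 CPM.

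In the heterozygous female the high values were Ly6a at 1203 CPM, Ly6i at 120 CPM, Oas1f at 155.2 CPM, Pgam2 at 154.3 CPM, Scd1 at 672.4 CPM, Mt3 at 40.99 CPM, Vim at 4.94 CPM and Eif1a at 386.7 CPM. The sums of the chaperone list, 38764 CPM, and of the 2-cell list, 438.2 CPM, were also highest there. Low values were Cdk6 at 1.289 CPM, Fgfr1 at 17.53 CPM and Mat2a at 472.2 CPM. In the wild-type male the values were all high: Pfn1 at 1116 CPM, Cox5a at 247.6 CPM, Atp5a1 at 1917 CPM, Ctnnb1 at 193 CPM, Ldhb at 1.024 CPM and Pdia3, an endoplasmic reticulum disulfide isomerase, at 610.1 CPM. In the heterozygous male only Igf2r was apart, at 156 CPM against 89.3 to 97.9 CPM.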

How the results depend on the processing

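Of 102 alternative values, 70 stayed within the limits set and 32 moved. The genotype test called 1 gene, but 0 with no low-count filter, with the spread of all 8 embryos or without sex as a term, 127 with DESeq2, and 0 to 2 when an embryo was left out. The sex test called 4 genes, but 1 with the spread of all 8 embryos, 107 with DESeq2 and 2 to 5 when an embryo was left out. Leaving out an embryo also meant leaving out the other factor, since the additive fit then has no residual degrees of freedom. The median coefficient of variation, 20.04%, was 24.61% at a minimum of 10 CPM, 15.92% at 100 CPM and 17.97% to 19.23% without an embryo. Of the 12 steadiest genes, 4 were kept with TMM scaling, 4 with DESeq2 size factors and 1 to 5 without an embryo. Of the 12 most variable, 6 were kept by the SD of log2(CPM + 1), 4 at a minimum of 10 CPM, 3 at 100 CPM and 3 to 9 without an embryo. At 100 CPM in all 4 embryos 1579 genes counted as expressed. By CPM per kb of coding length, 12 of the 20 highest genes were kept. The glycolysis sum of 4963 CPM became 5298 CPM with ribosomal protein genes out of the total, as a smaller total gives. The X-linked ratio of 1.34 was 1.31 to 1.413 without an embryo. The cause of the other moves was not tested. Coding length from RefSeq proteins was not run. No mitochondrially encoded gene could be taken out of the totals, since none was in the table. The genotype fit is already blocked on sex, by which the labels match the embryos. No paired analysis was possible because, beyond sex, the embryos carry no replicate numbers in the labels. The tests have 1 residual degree of freedom, and the smallest library sets a floor of 0.203 CPM.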
